A study of Mus musculus with 6 samples.

Results

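Zfp-named zinc finger genes were described in the mRNA of mouse bone marrow-derived macrophages pretreated with a KAT8 inhibitor. The members were the genes of the deposited count table whose symbol is Zfp followed only by digits, other than Zfp36, at a mean of at least 5 CPM (counts per 1000000 counts of a library) over the 6 libraries. They numbered 232 of the 34745 rows of the table, and of 372 rows with such a name. The members were thus chosen by name and by mean level over both groups, and levels around the cutoff are given as a description. The family was also taken up with earlier results of these data known.

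Primary macrophages were grown from wild-type bone marrow with the growth factor M-CSF at 20 ng/ml. Of the 6 libraries, 3 came from cells pretreated with the KAT8 inhibitor and 3 from cells pretreated with the solvent DMSO. All 6 samples were then given R848, an agonist of the endosomal RNA sensor TLR7, at 100 ng/ml for 6 h, so no library shows unstimulated cells. KAT8 (MOF) is the lysine acetyltransferase that places most acetyl groups on lysine 16 of histone H4; the name and dose of the inhibitor and the length of pretreatment were not given in the sources used here.

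Most Zfp-named genes encode proteins with arrays of C2H2 zinc fingers, small zinc-held folds that read DNA. Many of them begin with a KRAB box, a repressor domain that binds the scaffold protein Trim28 (KAP1), which in turn brings histone deacetylases, the H3K9 methyltransferase Setdb1 and heterochromatin protein to the bound site. KRAB zinc finger proteins are best known for silencing retroelements and for keeping imprinted genes methylated. Their genes lie in tandem clusters that arose by duplication, so that neighbours are close relatives.

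Library totals were 23037820 to 25089320 counts in the inhibitor group and 18441352 to 24429778 in the DMSO group. Of 13815 genes tested across the table, 3446 were higher and 3667 lower with the inhibitor. Kat8 itself was at 20.7 ± 0.351 CPM in inhibitor-treated cells and 16.1 ± 0.726 CPM in DMSO-treated cells (SD, n = 3 each), which measures its mRNA, together with any reads of the overlapping Prss8 on the opposite strand, and not the inhibited protein. The 8 macrophage markers summed to 7557 to 7635 CPM in inhibitor libraries and 11850 to 13530 CPM in DMSO libraries, with 6 of 8 called lower, and they stand far above the markers of other blood cells. The 10 stromal markers summed to 2795 to 2991 CPM with the inhibitor and 6088 to 6949 CPM with DMSO, with 8 of 10 called lower. Those of neutrophils, lymphocytes, dendritic cells and mast cells summed to at most 10.2 CPM each in inhibitor libraries and 17.5 CPM in DMSO libraries, with S100a9, Ly6g, Elane and Siglech at 0 in every library. The part of stromal cells in the results below was not tested, and in bulk RNA a change in the number of cells of a type cannot be told apart from a change in RNA per cell.

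With the inhibitor, 87 of the 232 Zfp-named genes rose and 10 fell, while 135 did not pass the test. A gene was called at an adjusted p under 0.05 in edgeR's quasi-likelihood test over the whole table. That is 37.5% called higher and 4.31% called lower, against 27.8% and 28.3% of the 10468 tested genes at the same CPM cutoff. The median log2 fold change, inhibitor over DMSO, was 0.21 over the members and 0.02 over all genes at the cutoff. Scaling by library totals alone shifted the median of all genes by 0.11, to 0.13; under it the members' median was 0.32 with 117 higher and 8 lower, and 40.3% of all genes were called higher and 21.2% lower. The members' median stood 0.19 above that of all genes under either scaling. A change of scaling moves all fold changes nearly alike, so this difference could hardly change.

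**Figure D1:**
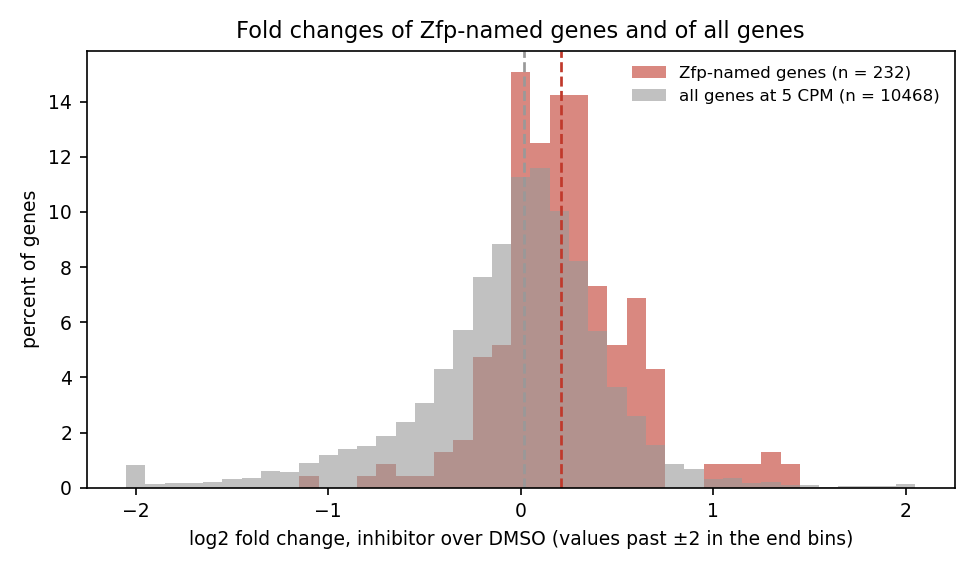
Distribution of log2 fold changes, inhibitor over DMSO, for 232 Zfp-named genes (red) and 10468 genes at the same CPM cutoff (grey); the y axis gives percent of genes per bin, dashed lines are medians, and values past 2 in either direction are placed in the end bins. The red bars sit to the right, with a median of 0.21 against 0.02, and hardly reach below −0.5, where the grey distribution has a long tail.

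Most rises were small. The quartiles of the members' log2 fold changes were 0.01 and 0.39, and of the 209 members at 5 CPM or more in both groups 4 rose and 1 fell at least 2-fold. The 3 inhibitor values all lay above the 3 DMSO values for 99 members (42.7%, against 33.1% of all genes at the cutoff) and all below them for 20 members (8.62%, against 31.6%). Of the 97 calls, 1 rested on groups that overlapped, that of Zfp358. Its levels were 21.98, 21.8 and 18.8 CPM in inhibitor libraries and 16.5, 16.3 and 19.01 CPM in DMSO libraries.

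Reads of the members made up 0.541%, 0.560% and 0.572% of all counts in the inhibitor libraries and 0.472%, 0.427% and 0.446% in the DMSO libraries. No inhibitor library fell within the DMSO range. Scaled by TMM, a factor that sets the bulk of genes level between libraries, the members summed to 5369 ± 128 CPM in inhibitor-treated cells and 4652 ± 154 CPM in DMSO-treated cells (SD, n = 3 each). Levels of genes and markers are given on this TMM-scaled CPM scale, while the cutoff uses CPM without it.

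The cutoff on mean level let in some genes through 1 group alone. In the inhibitor group alone, 23 members reached 5 CPM, of which 14 were called higher, and no member did so in the DMSO group alone. Such members had to be higher with the inhibitor, so they bear no weight; 5 of them are among the 12 largest rises described below, namely Zfp772, Zfp438, Zfp93, Zfp287 and Zfp235. Of the 209 members at 5 CPM in both groups, 73 rose (34.9%) and 10 fell (4.78%), with a median of 0.18; of 10100 tested genes at 5 CPM in both groups, 27.6% rose and 27.7% fell, with a median of 0.02. By mean level, 28 of 78 members at 5 to 10 CPM rose (35.9%) and 2 fell (2.56%), against 23.3% and 24.9% of all genes in that band, which holds the members let in by 1 group. At 10 to 20 CPM, the band with most members, 24 of 81 rose (29.6%), close to the 28.4% of all genes, while 5 fell (6.17%, against 24.0%). At 20 to 50 CPM 23 of 52 rose (44.2%, against 29.4%) and 2 fell (3.85%, against 25.4%). At 50 CPM or more 12 of 21 rose (57.1%, against 27.8%) and 1 fell (4.76%, against 33.3%). Falls were thus below the share of all genes in every band, and rises were near it at 10 to 20 CPM. Zfp-named genes under the cutoff that could be tested numbered 89, of which 18 rose (20.2%) and 2 fell (2.25%). Over all 13815 genes tested, at any level, the shares were 24.9% and 26.5%. Of these genes 10468 were at the cutoff, with shares of 27.8% and 28.3%. The shares of all genes under the cutoff thus lie below 24.9% and 26.5%, so the latter are no matched background for the 89. Their exact values were not taken.

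Just above the cutoff, by mean CPM, were Zfp956 at 5.004, Zfp169 at 5.02, Zfp449 at 5.15 and Zfp11 at 5.18. Just below it were Zfp455 at 4.80, Zfp558 at 4.70, Zfp3 at 4.62 and Zfp341 at 4.58. The cutoff thus marks no gap in level among these 8 genes.

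The most abundant members were not KRAB proteins. Zfp106, an RNA-binding protein needed to maintain motor neurons and muscle, was at 223, 237 and 229 CPM in inhibitor libraries and 205, 184 and 190 CPM in DMSO libraries. Zfp207 (BuGZ), which loads the checkpoint protein Bub3 onto kinetochores, was at 163, 152 and 166 CPM with the inhibitor and 135, 134 and 134 CPM with DMSO. Both were called higher, with groups that do not overlap, by 0.25 on the log2 scale (adjusted p = 0.00395 for Zfp106 and 0.00208 for Zfp207). Zfp91, a ubiquitin ligase of the non-canonical NF-kappaB pathway, was at 169, 168 and 178 CPM with the inhibitor and 159, 142 and 160 CPM with DMSO. Its log2 fold change of 0.16 passed (adjusted p = 0.042), but not without inhibitor replicate 1, 2 or 3 or DMSO replicate 2 (adjusted p = 0.0747, 0.0704, 0.127 and 0.107), and its exons overlap those of Cntf on the same strand. Zfp706 was at 87.4, 81.2 and 80.6 CPM with the inhibitor and 83.3, 83.4 and 80.9 CPM with DMSO, groups that overlap. Per kilobase of exon the highest level was that of Zfp207, at 24.1 CPM per kb in inhibitor-treated cells and 20.2 in DMSO-treated cells.

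The 12 largest rises with groups that do not overlap were led by Zfp52, a KRAB gene of chromosome 17 (ENSMUSG00000051341, mm10 chr17:21535539-21562601, plus strand). It was at 32.5, 35.9 and 37.2 CPM in inhibitor libraries and 13.7, 13.2 and 13.4 CPM in DMSO libraries. Every inhibitor value was more than 2-fold above every DMSO value. The log2 fold change was 1.39 (SE 0.074, adjusted p = 2.93e-06). Its exons overlap those of 9330136K24Rik on the opposite strand, and without knowledge of whether counting used strand such reads cannot be told apart.

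Zfp772, another KRAB gene (ENSMUSG00000066838, mm10 chr7:7202117-7209998, minus strand), was at 8.32, 9.66 and 8.34 CPM with the inhibitor and 2.54, 3.84 and 3.66 CPM with DMSO. Zfp672, which has 13 fingers and no KRAB box (ENSMUSG00000049755, mm10 chr11:58315114-58330339, minus strand), was at 31.2, 31.8 and 31.7 CPM with the inhibitor and 12.04, 12.3 and 13.2 CPM with DMSO. Zfp772 reached the cutoff through the inhibitor group alone, so its direction was set by the choice of members. The libraries of Zfp672, which lies above the cutoff in both groups, agreed closely within each group. Their log2 fold changes were 1.38 (SE 0.16, adjusted p = 0.000206) and 1.34 (SE 0.067, adjusted p = 2.26e-06). Exons of Zfp672 overlap those of 1700047K16Rik on the opposite strand.

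Among the other large rises, Zfp93, again let in by the inhibitor group alone, was at 7.39, 7.39 and 7.34 CPM with the inhibitor and 3.26, 3.19 and 3.05 CPM with DMSO. It belongs with Zfp235, let in the same way, and Zfp61, also among the 12, to a run of KRAB genes on chromosome 7, and their log2 fold changes were 1.22, 1.02 and 0.72. Zfp35, a gene of 17 fingers on chromosome 18, was at 38.0, 40.7 and 39.6 CPM with the inhibitor and 15.6, 16.5 and 17.8 CPM with DMSO. Zfp646, with 27 fingers the longest array among the 12, was at 74.3, 82.5 and 76.9 CPM with the inhibitor and 38.4, 35.0 and 38.1 CPM with DMSO. Groups without overlap were a condition for choosing all 12. Exons of Zfp646 overlap those of Prss53 and Zfp668 on the opposite strand. Zfp608, which represses the recombinase genes in mouse thymocytes, was at 26.8, 26.8 and 27.3 CPM with the inhibitor and 13.5, 15.1 and 13.2 CPM with DMSO. The remaining 3 were Zfp438 and Zfp287, both let in by the inhibitor group alone, and Zfp40, with log2 fold changes of 1.27, 1.06 and 0.71; Zfp287 carries both a SCAN and a KRAB domain, and its inhibitor libraries ranged between 6.11 and 9.04 CPM, against 2.98 to 4.27 CPM with DMSO.

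All 10 members that fell are named here. The largest fall was that of Zfp57, the KRAB protein that holds DNA methylation at imprinting control regions in mouse embryos (ENSMUSG00000036036, mm10 chr17:37001163-37010635, plus strand). It was at 5.81, 5.23 and 5.56 CPM in inhibitor libraries and 13.1, 10 and 11.6 CPM in DMSO libraries. The groups are far apart, and the log2 fold change was −1.06 (SE 0.12, adjusted p = 0.000189). Counts behind these levels were 131 to 151 with the inhibitor and 232 to 267 with DMSO.

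Zfp658, a KRAB gene (human ZNF658 is a repressor that responds to zinc), was at 9.59, 11.6 and 12.4 CPM with the inhibitor and 20.4, 18.5 and 18 CPM with DMSO. Zfp651, whose product is also called Zbtb47, was at 7.51, 6.59 and 6.93 CPM with the inhibitor and 10.2, 13.0 and 11.0 CPM with DMSO. Their log2 fold changes were −0.76 and −0.70, and neither gene's groups overlap. The KRAB genes Zfp811 and Zfp991 fell by 0.66 and 0.64 on the log2 scale, and Zfp395 and Zfp523 by 0.43 and 0.40. Zfp217, whose human counterpart ZNF217 is amplified in breast cancer and works with the CtBP co-repressor, was at 45.0, 43.8 and 45.8 CPM with the inhibitor and 54.7, 55.0 and 51.8 CPM with DMSO (log2 fold change −0.26, adjusted p = 0.00324). Zfp275 and Zfp771 fell by 0.24 and 0.23, and both calls were lost with library totals alone (adjusted p = 0.147 and 0.173). Without inhibitor replicate 1 neither passed (adjusted p = 0.0545 for Zfp275 and 0.0894 for Zfp771), nor did Zfp771 without inhibitor replicate 3 or DMSO replicate 2 or 3 (adjusted p = 0.0638, 0.0705 and 0.0565).

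**Figure D2:**
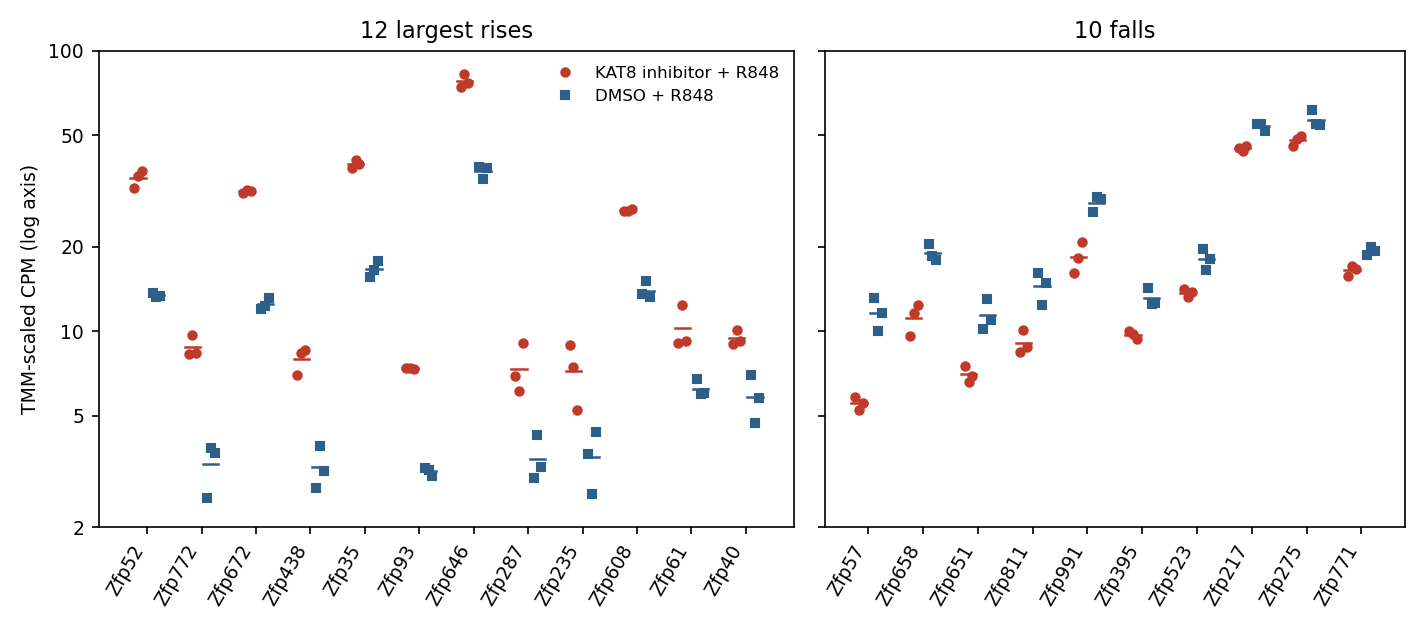
TMM-scaled CPM (log axis) of each library for the 12 largest rises (left) and the 10 falls (right), with inhibitor libraries as red circles left of DMSO libraries as blue squares and group means as short lines. The 12 rises were chosen among called members whose groups do not overlap, so the lack of overlap there is no result. The groups of the 10 falls, which are all the members called lower, do not overlap either. Zfp772, Zfp438, Zfp93, Zfp287 and Zfp235 reach the 5 CPM cutoff in the inhibitor group alone, so their direction was set by the choice of members. Zfp52 stands at 35.2 CPM on average with the inhibitor and 13.4 CPM with DMSO, and Zfp57 at 5.53 CPM with the inhibitor and 11.6 CPM with DMSO.

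Several members have a well-studied role; those that follow were chosen for it after their values were seen. Zfp445, which keeps imprints together with Zfp57, went the other way from it, at 66.3, 66.7 and 71.7 CPM with the inhibitor and 60.6, 53.2 and 51.3 CPM with DMSO (log2 fold change 0.31, adjusted p = 0.00692). Zfp809, which silences murine leukemia virus and related retroelements in mouse embryonic cells, was at 10.9, 12.4 and 12.8 CPM with the inhibitor and 10.9, 9.18 and 9.29 CPM with DMSO (0.30, adjusted p = 0.0447). Its lowest inhibitor library and its highest DMSO library read almost the same. Zfp638, whose human counterpart silences unintegrated retroviral DNA, was at 54.4, 56.3 and 51.9 CPM with the inhibitor and 46.5, 40.6 and 46.4 CPM with DMSO (0.29, adjusted p = 0.00855).

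Zfp410, an activator whose main known target is Chd4, the ATPase of the NuRD repressor complex, was at 39.9, 37.3 and 37.6 CPM with the inhibitor and 28.5, 25.7 and 26.1 CPM with DMSO (log2 fold change 0.52, adjusted p = 0.000325). Chd4 mRNA was lower in the same libraries, at 389 ± 6.91 CPM with the inhibitor and 447 ± 15.4 CPM with DMSO (SD, n = 3 each). Zfp703, a repressor of the NET family whose human counterpart is a breast cancer oncogene, and Zfp335, needed for the maturation of T cells, rose by 0.65 and 0.43. Zfp146, which consists of little else than fingers, was at 70.8, 69.0 and 68.7 CPM with the inhibitor and 42.1, 42.3 and 44.7 CPM with DMSO, without overlap. Zfp516, an activator of brown fat genes, and Zfp148, a binder of GC-rich promoters, rose by 0.29 and 0.19. The general promoter activator Zfp143, at 23.6 ± 1.92 CPM with the inhibitor and 20.6 ± 1.24 CPM with DMSO, and Zfp281, a regulator of pluripotency in mouse embryonic stem cells, at 58.6 ± 1.56 CPM with the inhibitor and 64.1 ± 3.01 CPM with DMSO, did not pass (adjusted p = 0.0813 and 0.0711).

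Promoters of 4 members among the largest rises and of the member that fell furthest are shown for their sequence beside these values, and those of other members, some of which rose further than Zfp93, are not shown. RefSeq windows on GRCm38.p6, running 250 bases before to 50 bases after the gene start, matched 190 of the 232 members, some by several windows, which gave 232 windows in all. Each is printed 5′ to 3′ on the gene's strand. Capitals mark matches, on either strand, to the motifs listed after them: CCAAT (read as ATTGG on the other strand) in Zfp52 at chr17:21535289-21535588 (+) and Zfp772 at chr7:7209949-7210248 (−), CCAAT and an ETS motif in Zfp672 at chr11:58330290-58330589 (−), a ZNF143 motif in Zfp93 at chr7:24270168-24270467 (+) and a TATA motif in Zfp57 at chr17:37000913-37001212 (+). A match is one of letters, whatever its position. That of Zfp57, TTTATA, is on the other strand near the 5′ end of the window, far before the gene start. The ATTGG of Zfp52 lies after the gene start.
Zfp52: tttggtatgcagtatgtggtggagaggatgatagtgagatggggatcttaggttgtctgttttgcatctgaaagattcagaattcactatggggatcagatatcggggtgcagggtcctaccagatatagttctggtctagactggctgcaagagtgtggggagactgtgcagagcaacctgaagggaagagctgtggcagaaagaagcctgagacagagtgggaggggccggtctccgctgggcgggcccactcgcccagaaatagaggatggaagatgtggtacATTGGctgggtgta
Zfp772: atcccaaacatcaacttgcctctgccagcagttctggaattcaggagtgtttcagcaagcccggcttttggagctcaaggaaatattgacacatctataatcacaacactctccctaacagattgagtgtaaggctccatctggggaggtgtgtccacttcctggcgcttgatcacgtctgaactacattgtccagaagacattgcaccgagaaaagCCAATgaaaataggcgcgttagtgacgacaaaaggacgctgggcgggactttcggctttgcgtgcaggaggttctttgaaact
Zfp672: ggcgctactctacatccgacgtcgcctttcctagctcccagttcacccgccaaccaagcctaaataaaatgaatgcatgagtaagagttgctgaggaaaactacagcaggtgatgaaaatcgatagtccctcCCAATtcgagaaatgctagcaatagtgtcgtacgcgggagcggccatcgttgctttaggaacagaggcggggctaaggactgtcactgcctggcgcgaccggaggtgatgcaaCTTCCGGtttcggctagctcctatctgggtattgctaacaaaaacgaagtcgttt
Zfp93: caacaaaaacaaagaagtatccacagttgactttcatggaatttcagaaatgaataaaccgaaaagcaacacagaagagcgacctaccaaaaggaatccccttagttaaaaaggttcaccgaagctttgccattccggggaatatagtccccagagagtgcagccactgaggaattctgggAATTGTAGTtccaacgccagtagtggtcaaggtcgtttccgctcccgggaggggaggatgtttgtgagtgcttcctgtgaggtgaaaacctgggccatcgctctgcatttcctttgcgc
Zfp57: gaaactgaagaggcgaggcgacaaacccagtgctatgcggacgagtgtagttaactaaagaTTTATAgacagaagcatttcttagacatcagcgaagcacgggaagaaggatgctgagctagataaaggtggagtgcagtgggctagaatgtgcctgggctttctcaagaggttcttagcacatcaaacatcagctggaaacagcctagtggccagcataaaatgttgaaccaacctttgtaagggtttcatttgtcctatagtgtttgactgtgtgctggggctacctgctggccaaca

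The member promoters as a set were rich in CpG and held few TATA motifs, set against all windows. Their median GC content was 56.2% with a median of 16 CpG dinucleotides per window, against 52.7% and 7 over all 32851 windows. Those windows cover genes at any level, while members were chosen at a mean of at least 5 CPM. The part of expression level in these differences was not tested. The motif TATAAA was in 6.03% of member windows and 13.6% of all windows. The ETS motif CCGGAAG was in 20.3% of member windows, against 8.86% of all, and the start of the motif bound by ZNF143, ACTACAATT, in 3.02% against 0.393%. The NRF1 motif GCATGCGC was in 6.47% against 2.71%, the YY1 motif AAGATGGC in 4.74% against 2.75%, the cyclic AMP response element TGACGTCA in 3.45% against 1.79%, the NRF2 element TGACNNNGC in 15.5% against 12.4% and CCAAT in 46.1% against 37.4%. The NRF2 and cyclic AMP elements both begin with TGAC. Between members, the ETS motif was in 20 of 81 windows of members that rose (24.7%), 26 of 139 of those not called (18.7%) and 1 of 12 of those that fell (8.33%). These are counts of letters in windows, with no test, and windows of 1 gene can share sequence.

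Members were also counted by protein class, and no difference between classes was tested. These counts include the 23 members let in by the inhibitor group alone, of which 14 were called higher. Their direction was set by the choice of members. Among them Zfp772, Zfp93, Zfp287 and Zfp235 have a KRAB box and Zfp438 does not, so they bear on the classes unequally. Of all genes at the cutoff 27.8% rose and 28.3% fell. A KRAB box was found in 124 members, of which 45 rose (36.3%) and 4 fell (3.23%), with a median log2 fold change of 0.23. Of 107 without it 41 rose (38.3%) and 6 fell (5.61%), with a median of 0.19. The 4 KRAB genes that fell were Zfp57, Zfp658, Zfp811 and Zfp991. A SCAN domain, which pairs such proteins with each other, was found in 11 members, of which 5 rose and none fell; 5 of the 11 also had a KRAB box, and 4 of those rose, against 1 of the 6 with a SCAN domain and no KRAB box. Members with 10 or more fingers numbered 126, with 46 higher (36.5%), 4 lower (3.17%) and a median of 0.21. Those with 3 to 9 fingers numbered 77, with 32 higher (41.6%), 4 lower (5.19%) and a median of 0.22. Those with fewer than 3 numbered 28, with 8 higher (28.6%, near the share of all genes), 2 lower (7.14%) and a median of 0.17. Zfp469, annotated as a noncoding RNA, was left unclassed.

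Other zinc finger families were counted in the same way, at the same cutoff, where 27.8% of all genes rose and 28.3% fell. Of 13 Zscan and Zkscan genes, which carry a SCAN domain and the same kind of fingers, 8 rose (61.5%) and none fell (median 0.34). Zscan29 was the furthest, at 50.4 ± 1.01 CPM with the inhibitor and 27.2 ± 1.05 CPM with DMSO (SD, n = 3 each; log2 fold change 0.89). Of 37 genes with a Zbtb name, most of which encode fingers that follow a BTB dimerization domain, 11 rose and 9 fell (median 0.11). These shares, 29.7% and 24.3%, were near those of all genes. The 9 that fell include Zbtb8os, which matches by name only and in which no finger was found. The furthest of those called were Zbtb40 (0.94) and Zbtb7c (−1.03). Of 13 Zc3h genes, whose CCCH fingers bind RNA, 5 rose (38.5%) and 3 fell (23.1%), with a median of −0.01, the 3 being Zc3h4, Zc3h7b and Zc3h12c. Of 6 Zmym genes Zmym2 rose and Zmym1 fell. Zfp36, which the rule leaves out, also has CCCH fingers and hastens decay of cytokine mRNAs. It was at 91.8 ± 3.65 CPM with the inhibitor and 73.3 ± 1.40 CPM with DMSO, while its relative Zfp36l1 was at 42.2 ± 0.998 CPM with the inhibitor and 85.1 ± 3.52 CPM with DMSO (SD, n = 3 each).

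Partners of KRAB proteins were counted from a list of 33 co-repressor genes, which was not held to the CPM cutoff (Sumo2 and Suv39h2 lie below it). Of these 2 rose (6.06%) and 8 fell (24.2%), with a median log2 fold change of −0.08. The share that fell was near the 28.3% of all genes at the cutoff. With library totals alone 7 were called higher and 6 lower. Trim28, the scaffold that KRAB boxes bind, was at 136 ± 2.69 CPM with the inhibitor and 164 ± 7.77 CPM with DMSO (SD, n = 3 each; log2 fold change −0.27, adjusted p = 0.00158). The smallest p among those that fell belonged to Uhrf1, a cofactor of maintenance DNA methylation, at 13.7 ± 0.626 CPM with the inhibitor and 39.9 ± 0.771 CPM with DMSO, and to Daxx, a histone H3.3 chaperone (−0.44, adjusted p = 0.000825). Cbx5, which encodes heterochromatin protein 1 alpha, the methyltransferase gene Ehmt2, Hdac1, Chd3 and Chd4 also fell. The 2 that rose were Setdb1 and Smarcad1, each by 0.16. These 2 calls were weak: Setdb1 passed only with all 3 inhibitor libraries and DMSO replicates 2 and 3 present (adjusted p = 0.0603 to 0.0835 otherwise), and Smarcad1 failed without inhibitor replicate 2 or 3 or any DMSO library (adjusted p = 0.068 to 0.141).

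**Figure D3:**
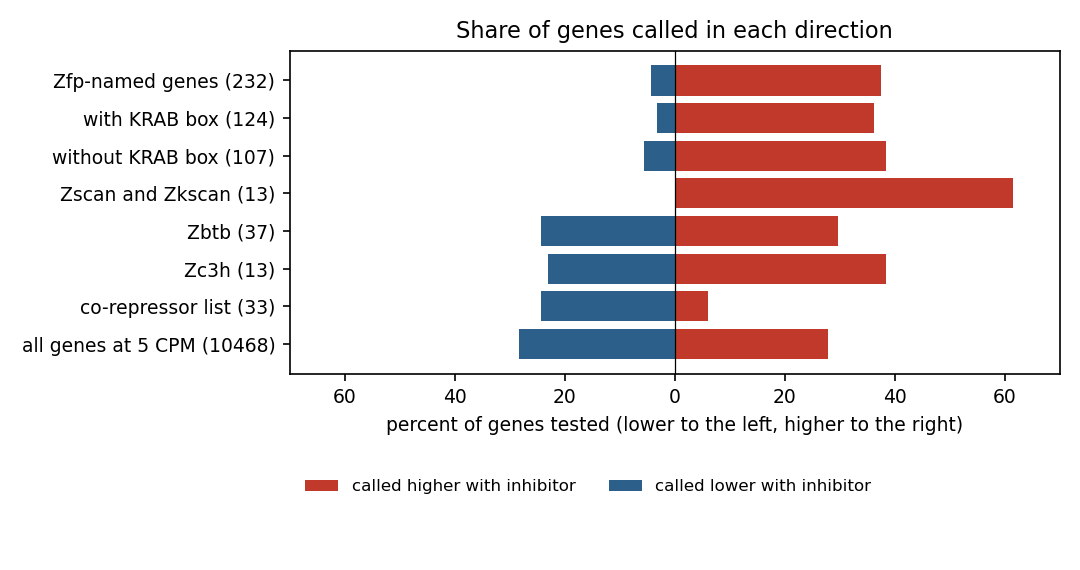
Percent of tested genes called higher (right, red) and lower (left, blue) with the inhibitor, by group, with the number of genes in parentheses. Zfp-named genes stand at 37.5% higher and 4.31% lower (36.3% and 3.23% with a KRAB box, 38.3% and 5.61% without), and the co-repressor list, not held to the cutoff, at 6.06% higher and 24.2% lower, beside 27.8% and 28.3% for all genes at the cutoff. The Zfp-named genes include 23 that reach the cutoff in the inhibitor group alone, so that their direction was set by the choice of members.

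Members that lie together in the genome were compared next. A cluster was a run of at least 3 members whose neighbouring starts lay at most 1 Mb apart, named here by chromosome number and a letter. There were 21 clusters with 124 members, of which 43 rose and 4 fell, and 108 members outside them, of which 44 rose and 6 fell. The median log2 fold change was 0.21 in each set. These counts, and those of single clusters below, include members let in by the inhibitor group alone. Chromosome 7 held 53 members, of which 19 rose and 2 fell, while of its 721 other genes at the cutoff 185 rose and 234 fell. On chromosome 17, 8 of 31 members rose (25.8%) and 3 fell (9.68%), and 24.8% of its other genes rose and 30.5% fell, so that rises of members were near the share of their chromosome.

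The largest cluster, 17a, held 17 members over 2.56 Mb (mm10 chr17:21008903-23564238), 16 of them with a KRAB box, and no other gene at the cutoff. Within it 8 rose and none fell, and log2 fold changes ran between −0.05 and 1.39. Zfp52 stood far above its neighbours. Zfp53 and Zfp948, the members next to it on either side, had log2 fold changes of −0.03 and 0.27. Zfp53 was at 7.78, 8.07 and 9.38 CPM with the inhibitor and 8.89, 8.58 and 8.28 CPM with DMSO, groups that overlap. Reads that match several close copies may have been split or dropped, since the counting rule is unknown. Zfp40 (0.71), Zfp677 (0.68) and Zfp758 (0.55) were the next highest of the cluster.

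In each of the 3 clusters of 9 members, 8 had a log2 fold change above 0, members let in by the inhibitor group alone included. Their counts called differed, and no difference between clusters was tested. In 13a (mm10 chr13:67312998-67729173) all 9 had a KRAB box, 4 rose and none fell, with a median of 0.18. The largest change there was that of Zfp456, at 6.55, 7.83 and 6.64 CPM with the inhibitor and 4.97, 4.96 and 5.10 CPM with DMSO. On CPM without TMM, Zfp456 reached the cutoff in the inhibitor group alone, so its direction was set by the choice of members. In 17b (mm10 chr17:32765496-33631779) no member rose and Zfp811 fell, with a median of 0.12. In 7f (mm10 chr7:29768552-30169750) 3 rose and none fell, with a median of 0.47. The largest value of 7f was that of Zfp27 (0.75), which did not pass (adjusted p = 0.0972) and spread widely within groups, at 5.70, 7.55 and 12.8 CPM with the inhibitor and 4.69, 3.54 and 7.19 CPM with DMSO. Without inhibitor replicate 1 or DMSO replicate 3 it passed (0.98, adjusted p = 0.0392, and 1.08, adjusted p = 0.0432). On CPM without TMM, Zfp27 and Zfp82 of 7f reached the cutoff in the inhibitor group alone. Their direction was thus set by the choice of members, and those passes bear no weight. The median of 7f includes both genes.

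Of the smaller clusters, 7e (mm10 chr7:27731389-28014115) had 4 of 5 members higher, with a median of 0.49 and values between 0.06 and 0.67. Of those that rose, Zfp974 and Zfp850 reached 5 CPM in the inhibitor group alone, so their direction was set by the choice of members. The median is the value of Zfp974. In 7d, which holds Zfp93, Zfp235 and Zfp61, those 3 of 7 members rose. Zfp93 and Zfp235 were let in by the inhibitor group alone. Of 14 other genes in the interval 3 rose and 5 fell. In 7h 4 of 8 members rose and Zfp771 fell. In 7g Zfp658 fell, and the 3 other genes at the cutoff inside the interval, Cd33, Etfb and Siglecf, fell as well, with a median of −1.19, while 1 of the other 5 members rose. In 4a the single other gene, Gm20707, was called lower (−0.75) together with Zfp991. Clusters 2a, with 3 members, and 17b were those without a riser beside 4a.

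**Figure D4:**
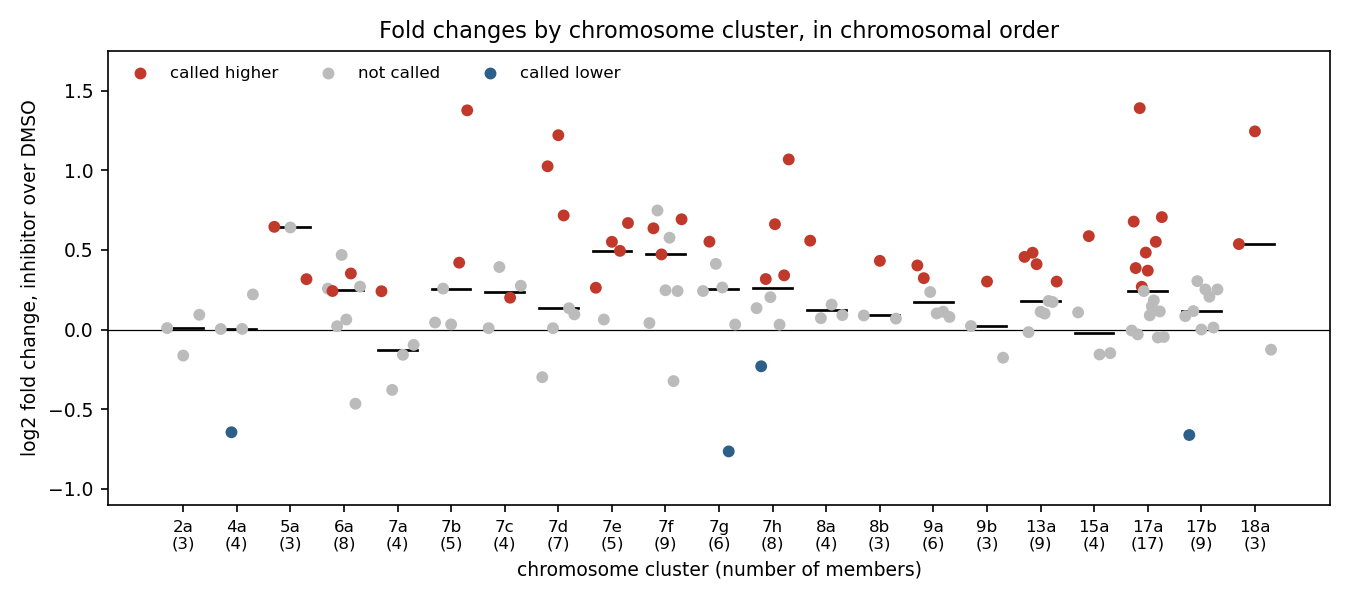
Log2 fold change, inhibitor over DMSO, of each member of the 21 clusters, placed in order along the chromosome within each cluster, with the cluster median as a black line and the number of members in parentheses. Cluster 17a spans −0.05 to 1.39 with 8 of 17 called higher (red), and the 4 called lower (blue) lie in 4 different clusters.

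Across the 232 members, the log2 fold change went little with any single property. Spearman's rho, a description over genes that are not independent, was −0.12 with mean CPM, −0.02 with exon length, −0.12 with GC content, 0.13 with the number of fingers (231 members) and −0.07 with the distance to the nearest member. Members had a lower GC content than all genes at the cutoff, with a median of 44.7% against 49.4%, and a similar exon length, 4938 against 4632 bases. Exons of 73 members overlap another annotated gene, 58 of them on the opposite strand. Of the 159 without such overlap 62 rose and 8 fell, with a median of 0.22.

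A small set of members varied more between libraries of 1 group than between the groups. Levels differed over 2-fold within a group for 12 of the 232 members (5.17%), against 1.84% of all genes at the cutoff. Among genes at the cutoff with a mean level up to the members' median of 13.9 CPM the share was 3.28%. None of the 12 was called. Zfp62 had 370, 1307 and 1370 counts in inhibitor libraries and 667, 119 and 181 counts in DMSO libraries. Its fitted log2 fold change of 1.34 thus ranks with the largest rises but did not pass (SE 0.73, adjusted p = 0.16). Zfp46 had 697, 130 and 91 counts with the inhibitor and 376, 380 and 99 with DMSO, so that its extremes lie within the inhibitor group. Zfp568, which represses a placental Igf2 transcript in mice, was at 13.98, 14.1 and 35.3 CPM with the inhibitor and 12.3, 29.6 and 11.1 CPM with DMSO, with 1 high library in each group. The other 9, Zfp12, Zfp260, Zfp157, Zfp629, Zfp451, Zfp27, Zfp180, Zfp58 and Zfp775, differed within a group by 2.00-fold to 3.35-fold, and no single library was the extreme one for all of them.

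**Figure D5:**
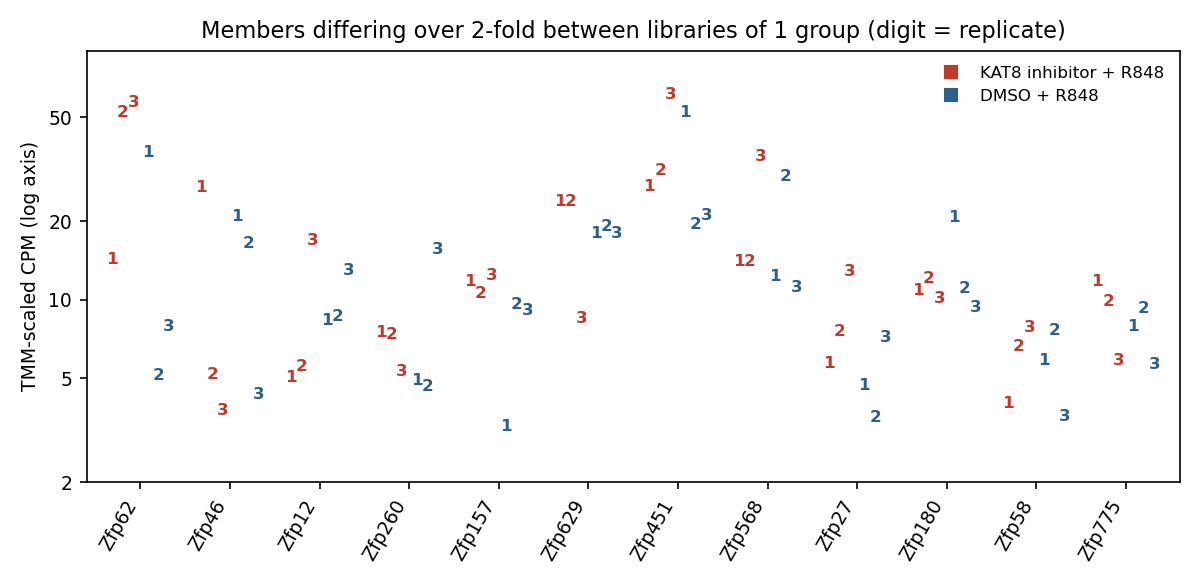
TMM-scaled CPM (log axis) of the 12 members that differ over 2-fold between libraries of 1 group, each library drawn as its replicate digit, inhibitor in red left of DMSO in blue. Zfp62 reads 14.3, 52.2 and 56.8 CPM with the inhibitor and 36.8, 5.13 and 7.89 CPM with DMSO, and the library that stands out changes with the gene.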

How the data were processed

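Raw read counts per Ensembl gene, 1 column per library, were deposited by the authors in a single table with no normalization. The submitters' processing notes name the build mm10 and the tools HISAT2, edgeR and StringTie 1.3.0. Neither an annotation release nor a counting rule, a rule for reads that match several places or the use of strand was given in the sources used here, so reads of close relatives, as within Zfp clusters, may be split or lost, and overlapping genes share reads. Groups came from the sample titles. No label says whether replicates were separate animals or cultures. If they were not, p-values cover only technical spread.

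Symbols were matched by Ensembl identifier (478 rows had none) and coordinates, exon lengths and GC content taken from GENCODE M21 of the same build, counted from 1. Of the 372 Zfp-named rows, 23 had 0 counts in every library. Counts were fitted on the whole table with edgeR 4.0.16 in R 4.3.3 (filterByExpr, TMM scaling, quasi-likelihood test, 3 against 3 libraries, Benjamini-Hochberg adjustment over 13815 genes). SE is the log2 fold change divided by the square root of the test's F. KRAB and SCAN domains were found with HMMER 3.4 profiles (E value 1e-05) built from the translated annotation, and fingers by the C2H2 pattern. Promoters came from RefSeq. On simulated counts of 13815 genes made for this comparison, the test recovered 65.7% of 1.5-fold, 85.1% of 2-fold and 97.0% of 4-fold changes. Only 67, 67 and 66 genes of any tested level were changed there, while 3446 were called higher and 3667 lower in the data. The adjusted p was thus harder to pass in the simulation, and its rates do not describe the members. Within a group, the chi-square of paired counts per degree of freedom was 8.77 to 13.5, above the sampling noise expected of duplicated libraries, and 80.3 to 96.5 between groups.

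The members, the gene lists and the rule for naming genes were chosen with earlier results of these data known. The rule took the 12 largest rises and falls among called members with groups that do not overlap, the 4 highest mean CPM, the 4 genes on either side of the cutoff, the 3 most abundant called in each direction, the largest change of the biggest clusters, Kat8, and of the co-repressors Trim28, Setdb1 and the 2 smallest p in each direction; other genes named were chosen after their values were seen. The result of 1 marker list is not reported here. No set test was run. Alternatives were other scalings, filters and thresholds, the Wald test of DESeq2 1.42.0, a replicate block, removal of GC and length trends, each library left out, other CPM cutoffs and other cluster gaps.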

Additional observations from a re-analysis of the deposited data

How the results depend on the processing

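The 232 members were held fixed under each scaling, filter, test, threshold and left-out library tried. Between 56 and 117 of them were called higher and between 8 and 13 lower. Their median lay 0.16 to 0.21 above that of all genes at the cutoff. Other scalings move all genes nearly alike and another threshold leaves medians as they are, so those settings could hardly change this difference. At a cutoff of 10 CPM 59 members were higher and 8 lower, and at 1 CPM 104 and 11. The counts at 10 CPM are those of the bands of mean level at 10 CPM and over, given above beside the shares of all genes in each band. The counts at 1 CPM are given without the share of all genes at that cutoff. Leaving out unsteady members or those with overlapping exons was added after seeing the data and gave medians of 0.21 and 0.22. With library totals alone, the median was 0.32 over the members, 0.32 over clustered and 0.32 over unclustered members and 0.13 over all genes; 7 co-repressors were called higher, 1 Zc3h gene lower and 0 Zmym genes lower. At an adjusted p under 0.01, 56 members were higher, 0 co-repressors higher, 5 Zbtb genes lower and 0 Zmym genes lower. The number of co-repressors called higher was also 1 with no low-count filter and after removal of GC and length trends, and 0 with DESeq2 (2 by edgeR). The median of all genes was 0.028 with no filter and 0.026 after removal of the trends, and 0.012 at a cutoff of 1 CPM. Leaving out each library gave 66 to 85 members higher, medians of 0.16 to 0.23 for unclustered members and 0.012 to 0.022 for all genes, 0 to 4 co-repressors higher (4 without DMSO replicate 1), 1 to 2 Zmym genes higher and 0 to 1 lower. The cause of these shifts was not tested. Zfp449, Zfp706 and Zfp455 lie near 0 and changed sign. Zfp449 was at −0.00041 with DESeq2 size factors, −0.00036 with DESeq2 and −0.018 without the trends, and Zfp706 at −0.018 without the trends. Leaving out each library gave −0.080 to 0.075 for Zfp449, −0.027 to 0.031 for Zfp706 and −0.14 to 0.25 for Zfp455.

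Same-numbered libraries of the groups did not deviate together (correlations of −0.034, −0.0030 and 0.024). Whether they share an animal or culture stays unknown, since no label says what a replicate is. With a replicate block 80 members were higher, 78 of them among the 87, and 10 lower; 1 co-repressor was higher. Low counts limit the members near the cutoff, and multiple matching and strand limit those with close copies or overlapping exons.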
